A study of Mus musculus with 9 samples.

Results

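The 10 genes described here encode enzymes of the serotonin and kynurenine routes of tryptophan metabolism, some forming these products and others acting on them. They are Tph1, Tph2, Ddc, Maoa and Maob on the serotonin side, and Tdo2, Afmid, Kmo, Aadat and Kyat3 on the kynurenine side. They were taken by gene symbol from the authors' table of 54513 symbols, each of the 10 was found, and 9 had enough counts to be tested among 18690 genes. Aadat was the one that fell below the filter on low counts.

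The libraries are 9 messenger RNA preparations of tissue labelled as mouse hippocampus, from 3 groups of 3 mice. Mice of the Trp group ate a high-fat diet with tryptophan added at 0.5% by weight. Mice of the IPA group ate the high-fat diet and were gavaged each day with indole-3-propionic acid (IPA), a compound that gut bacteria make from tryptophan, at 100 mg per kg. Mice of the HFD group had the high-fat diet alone. All lasted 12 weeks, so the high-fat diet is common to the 3 groups and no group on ordinary chow was used here. The sources used here do not give strain, sex, age or whether HFD mice received a saline gavage. The labels tie the table's column codes HOB to Trp, HEB to IPA and WTB to HFD without explaining the codes, and if the codes stand for something other than diet, the comparisons are not of diets.

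Tryptophan hydroxylase adds a hydroxyl group to tryptophan in the rate-limiting step of serotonin synthesis. Tph2 is the form of brain serotonin neurons, whose cell bodies lie in the raphe nuclei of the brainstem and whose fibres reach the hippocampus, and Tph1 is the form of the gut, the pineal gland and other peripheral tissues. Most tryptophan in the body is broken down along the kynurenine pathway instead, which ends in NAD. On the way, kynurenine can be turned by Kmo into 3-hydroxykynurenine, which leads to quinolinic acid, an agonist of NMDA receptors, or by aminotransferases such as those encoded by Aadat and Kyat3 into kynurenic acid, an antagonist of the same receptors.

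Total counts ran from 40621084 in IPA 2 to 50938746 in Trp 1. Neighbouring tissue varied between libraries: the summed CPM (counts scaled to library size by the TMM method) of 10 striatal markers ran from 1649 to 2352 in Trp, 2326 to 3128 in IPA and 716.5 to 2327 in HFD, beside 272 to 333, 283 to 321 and 307 to 357 for 7 markers of hippocampal CA pyramidal cells and 101 to 151, 109 to 126 and 114 to 182 for 8 of dentate granule cells. Other neighbouring tissues varied as well, given here for Trp, IPA and HFD in that order. Summed CPM ran from 40.8 to 1449, 311.5 to 1223 and 141 to 730 for 10 choroid plexus markers. For 7 ependymal markers it ran from 15.1 to 34.7, 20.2 to 36.7 and 15.9 to 20.0. Ranges were 31.3 to 187, 9.31 to 88.5 and 15.2 to 92.2 for 9 hypothalamic markers. They were 92.3 to 144, 53.5 to 124 and 81.2 to 235 for 8 markers of thalamus and habenula. HFD 3 stood apart. It had 15480 CPM over 7 oligodendrocyte markers, against 7763 to 10180 CPM in the other 8 libraries. It also had 11.1 CPM of Slc6a3, the dopamine transporter, against 0.168 to 0.751 CPM. Fitted member fold changes that rest on HFD 3 are given below also without it. Red blood cell markers, 5 genes, differed between groups as well: they summed to 353, 383 and 233 CPM in Trp, 299.5, 399 and 248 CPM in IPA, and 571, 732 and 2212 CPM in HFD, so all HFD libraries lay above all others. All 5 had an unadjusted p under 0.05 in both comparisons with HFD, and 0 passed after adjustment by edgeR. Microglial markers, 11 genes, summed to 401 to 515 CPM in Trp, 288 to 306 CPM in IPA and 267 to 290 CPM in HFD. In bulk tissue, fewer cells of a type and less RNA per cell cannot be told apart. The part of these markers in the results below was not tested.

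None of the 9 tested members passed at an adjusted p under 0.05 (quasi-likelihood test of edgeR, Benjamini-Hochberg adjustment over 18690 genes) in any of the 3 comparisons: Trp with HFD, IPA with HFD, or Trp with IPA. Of all genes tested, 64 (0.342%) passed in Trp against HFD, 1 (0.00535%) in IPA against HFD and 0 (0%) in Trp against IPA. At an unadjusted p under 0.05, Maob and Kyat3 differed in Trp against HFD (2 of 9 members, 11.3% of all genes), Kyat3 in IPA against HFD (1 of 9, 10.4%), and Tph1 and Tph2 in Trp against IPA (2 of 9, 4.49%). With DESeq2, 1 member was called in Trp against HFD, which was Kyat3, 0 in IPA against HFD and 0 in Trp against IPA. Over all genes DESeq2 called 309 (1.65%), 171 (0.915%) and 15 (0.0803%) in these comparisons. The median log2 fold change of the 9 tested members was 0.33 in Trp against HFD, -0.175 in IPA against HFD and 0.16 in Trp against IPA, beside medians over all tested genes of -0.0022, -0.0056 and 0.0077. Each member median is the value of a single gene, Ddc in Trp against HFD and Maoa in IPA against HFD and Trp against IPA. Positive and negative member values numbered 5 and 4, 2 and 7, and 7 and 2 in these comparisons. The members were not tested as a set. The Trp and IPA comparisons share the HFD libraries.

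The levels themselves differed widely between members. Per gene length, Maob was highest with a mean of 11.55 FPKM over the 9 libraries (fragments relative to gene length and library size), followed by Maoa at 8.51, Ddc at 5.51 and Kyat3 at 1.98. Tph2 at 0.608 FPKM, Afmid at 0.5035 and Tdo2 at 0.374 came next, and Tph1 at 0.0656, Kmo at 0.0621 and Aadat at 0.045 were lowest. The order from Maob down to Tph2 held in all 9 libraries. Tph2 exceeded Afmid in 5 libraries and Afmid exceeded Tdo2 in 5, so these neighbours do not differ beyond their spread. Tdo2 lay above Tph1 in all 9, Tph1 above Kmo in 7 and Kmo above Aadat in 6. Among tested genes ranked by level, Maob stood at the 72.3rd percentile, Maoa at the 66.0th, Ddc at the 57.05th and Tph1 at the 1.64th.

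**Figure D1:**
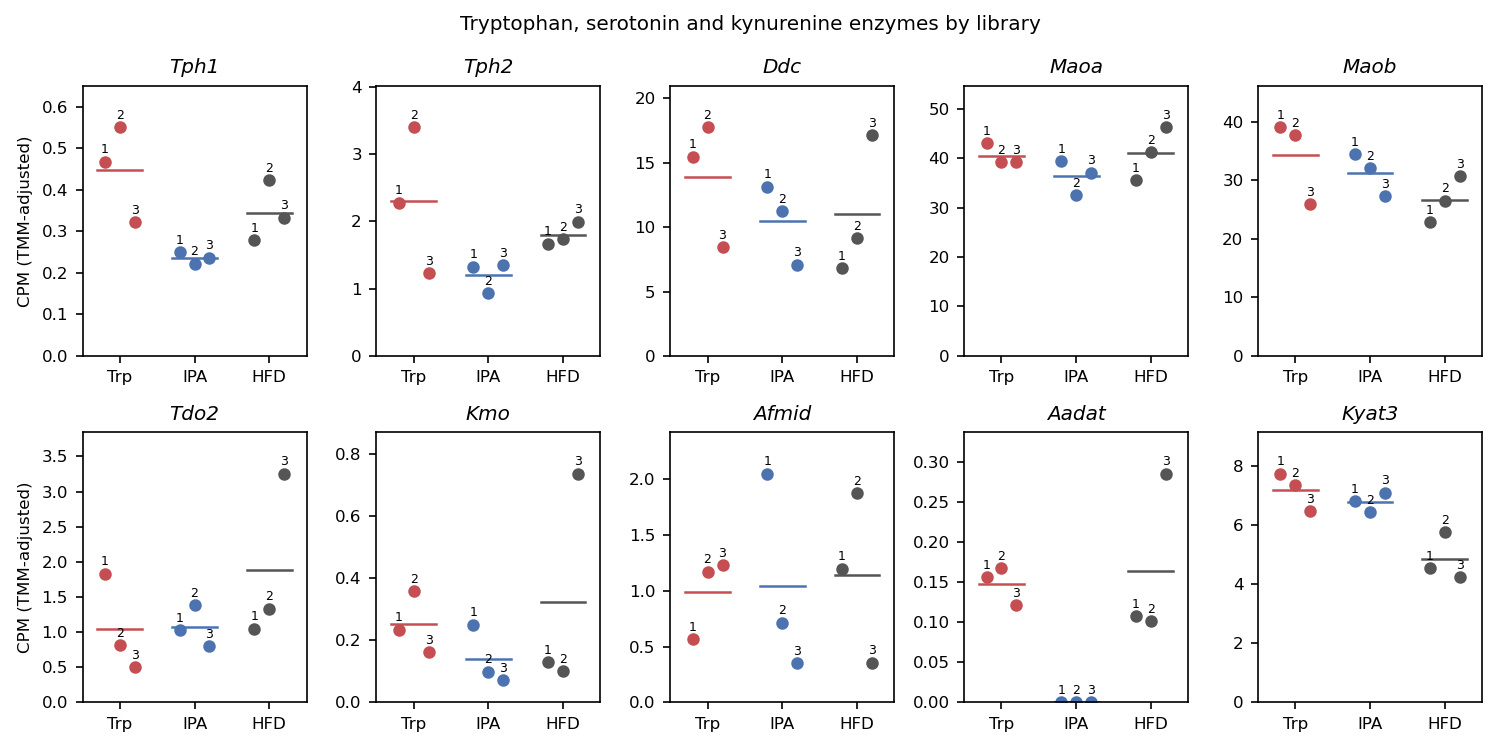
CPM of each of the 10 enzymes in each library (points, numbered by replicate) with the group mean (line), for Trp, IPA and HFD from left to right and a vertical axis per gene that starts at 0. Kyat3 is higher in all 3 Trp and all 3 IPA libraries (6.435 to 7.73 CPM) than in HFD (4.23 to 5.75 CPM), and Aadat is at 0 in the 3 IPA libraries.

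Tph1 and Tph2 make the first step. In the authors' coordinates, whose build is not settled, Tph1 lies on chromosome 7 from 46294065 to 46321961 and Tph2 on chromosome 10 from 114914546 to 115020927, both on the minus strand. Their promoters are shown because the genes varied alike across libraries, although one is known as the peripheral and the other as the brain form. The Pearson correlation of their log2 CPM over the 9 libraries was 0.877, with 9 to 24 Tph1 counts a library. RefSeq has 2 starts for Tph1, and the upstream one is given. Both are windows of 300 bases across the start in RefSeq's GRCm38.p6 annotation, at chr7:46672488-46672787 and chr10:115184973-115185272, both on the minus strand, and capitals mark matches to TATAAA or GCGTG.
Tph1 promoter: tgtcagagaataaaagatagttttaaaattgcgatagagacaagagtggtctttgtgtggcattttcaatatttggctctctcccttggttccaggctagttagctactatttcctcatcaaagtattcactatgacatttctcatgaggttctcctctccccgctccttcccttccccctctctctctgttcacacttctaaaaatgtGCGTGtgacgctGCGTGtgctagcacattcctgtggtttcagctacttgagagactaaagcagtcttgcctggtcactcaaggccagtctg
Tph2 promoter: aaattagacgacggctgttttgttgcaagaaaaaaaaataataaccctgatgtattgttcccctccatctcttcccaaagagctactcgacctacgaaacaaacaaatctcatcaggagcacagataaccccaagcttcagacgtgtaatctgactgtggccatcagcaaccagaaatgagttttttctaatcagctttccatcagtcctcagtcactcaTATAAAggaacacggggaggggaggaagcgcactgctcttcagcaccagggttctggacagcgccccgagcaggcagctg
The letters TATAAA, the TATA box, were found on either strand once in the Tph2 window, and in 13.6% of 32851 promoter windows of the same length. GCGTG, the core bound by the AHR and ARNT factors, was found at 2 places in the Tph1 window shown and in 32.4% of all windows. The window of the other Tph1 start, at chr7:46667328-46667627, held 0 matches to it. No matches of different motifs overlapped in these windows. A match is a run of letters and not evidence of binding.

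In the order of replicates 1 to 3, here and below, Tph2 had 2.28, 3.40 and 1.23 CPM in Trp, 1.33, 0.937 and 1.35 CPM in IPA, and 1.67, 1.735 and 1.995 CPM in HFD, from 38 to 142 counts a library. The means were 2.30 ± 1.085 in Trp, 1.204 ± 0.231 in IPA and 1.80 ± 0.172 in HFD (SD, n = 3 each). All 3 IPA libraries lay below all 3 HFD libraries, and the Trp libraries spanned both groups. The log2 fold change was 0.35 (SE 0.32, adjusted p = 0.739) in Trp against HFD by edgeR. It was -0.58 (SE 0.33, 95% interval -1.29 to 0.13, adjusted p = 0.558) in IPA against HFD and 0.93 (SE 0.32, 0.23 to 1.63, adjusted p = 0.987) in Trp against IPA. Without Trp 2, the Trp against HFD value was -0.0347 and the Trp against IPA value 0.541.

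Tph1 gave 9 to 24 counts a library, which limits its precision. Its level was 0.468, 0.551 and 0.3225 CPM in Trp, 0.250, 0.222 and 0.236 CPM in IPA, and 0.278, 0.424 and 0.3325 CPM in HFD. The IPA libraries lay below all libraries of both other groups, while Trp and HFD overlapped. By edgeR the log2 fold change was 0.36 (SE 0.38, adjusted p = 0.785) in Trp against HFD, -0.54 (SE 0.41, adjusted p = 0.673) in IPA against HFD and 0.91 (SE 0.40, 0.03 to 1.78, adjusted p = 0.987) in Trp against IPA. Groups that do not overlap in CPM were common among all tested genes. Of the 9 tested members, Kyat3 alone (1) lay wholly higher and 0 wholly lower in Trp against HFD, beside 8.06% and 7.43% of all genes (15.5% in either direction). In IPA against HFD, Kyat3 lay wholly higher (1) and Tph1 and Tph2 wholly lower (2), beside 7.19% and 8.01% (15.2%). In Trp against IPA, Tph1 lay wholly higher (1) and 0 wholly lower, beside 5.61% and 5.55% (11.2%). Tph2 exceeded Tph1 in every library, by a CPM ratio of 3.81 to 6.17 in Trp, 4.22 to 5.70 in IPA and 4.095 to 6.0 in HFD.

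Markers of serotonin neurons were scarce. Slc6a4, the serotonin transporter, was at 0.214, 1.05 and 0.141 CPM in Trp, at 0, 0.123 and 0.189 CPM in IPA, and at 0.0642, 0.101 and 0.119 CPM in HFD. Fev, a transcription factor that defines these neurons, was at 0.168 CPM in Trp 2, at 0.07125 CPM in HFD 3 and at 0 in the other 7 libraries. The library with the most Slc6a4 and Fev, Trp 2, also had the most Tph2 and Tph1. The other listed markers of these neurons peaked elsewhere: Lmx1b, Gata3 and En2 in HFD 3 (0.57, 1.805 and 0.641 CPM), and Gata2 in Trp 1 (4.38 CPM). The 6 serotonin neuron markers together summed to 3.61 to 5.60 CPM in Trp, 3.14 to 3.90 CPM in IPA and 3.79 to 7.17 CPM in HFD, mostly Gata2 (mean 3.47 CPM). The part of these markers in the Tph values was not tested. Mast cells and the pineal gland are other sources of Tph1. The 8 mast cell markers summed to 1.81 to 2.71 CPM in Trp, 1.151 to 2.47 CPM in IPA and 1.52 to 2.80 CPM in HFD, nearly all of it Hdc, histidine decarboxylase, which brain neurons also express (mean 2.03 CPM), with Fcer1a and Mrgprb2 at 0 in every library. The 6 pineal markers summed to 1.94 to 2.58 CPM in Trp, 1.99 to 2.502 CPM in IPA and 1.57 to 3.17 CPM in HFD, mostly Sag (mean 2.101 CPM), with Aanat at a mean of 0.1835 CPM and Gngt1 at 0 in every library.

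**Figure D2:**
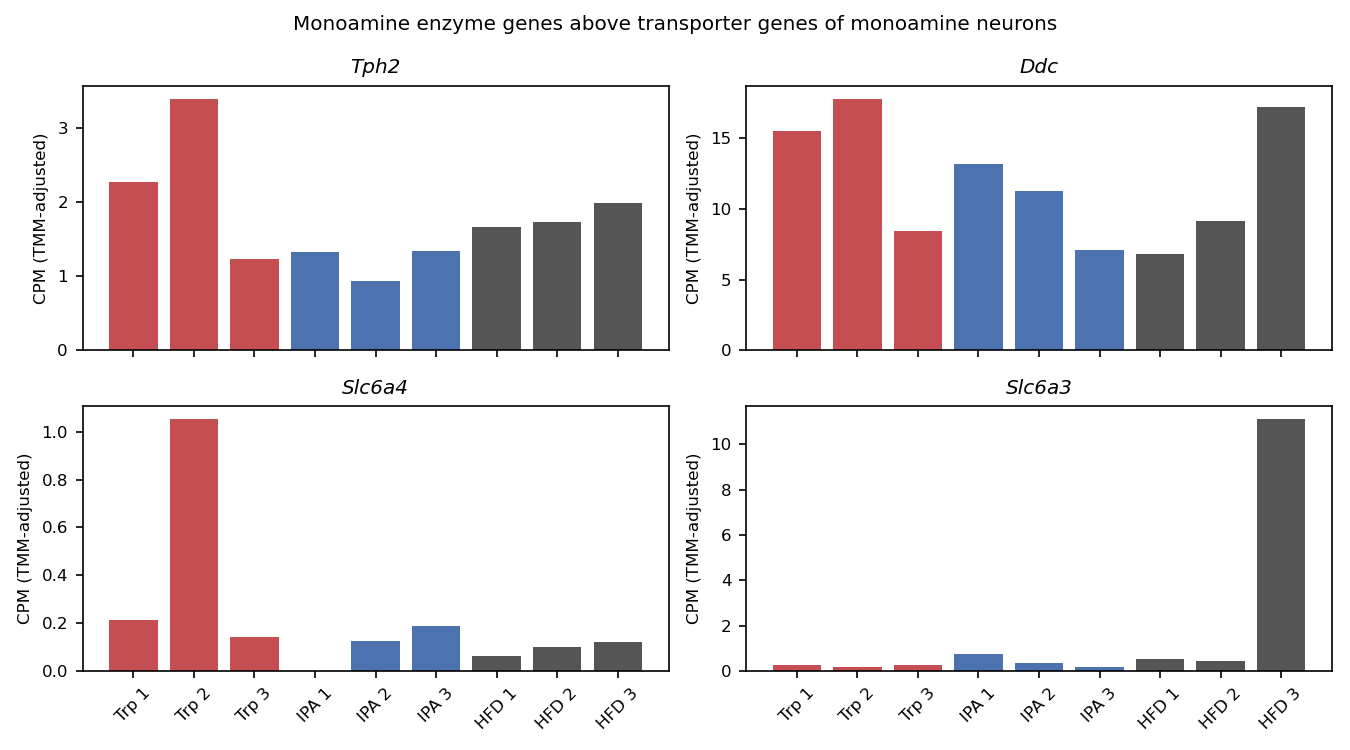
CPM (bars, from 0) of Tph2 and Ddc above the serotonin transporter Slc6a4 and the dopamine transporter Slc6a3, in the 3 Trp, 3 IPA and 3 HFD libraries from left to right. Tph2 and Slc6a4 are both highest in Trp 2, where Slc6a4 is at 1.05 CPM, and Slc6a3 reaches 11.1 CPM in HFD 3 and at most 0.751 CPM elsewhere.

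Ddc, aromatic L-amino acid decarboxylase, turns 5-hydroxytryptophan into serotonin and L-DOPA into dopamine. It stood at 15.5, 17.8 and 8.43 CPM in Trp, 13.1, 11.3 and 7.09 CPM in IPA, and 6.83, 9.16 and 17.2 CPM in HFD. All 3 groups overlapped, and the HFD libraries held the lowest value and the second highest. The log2 fold change was 0.33 (SE 0.42, adjusted p = 0.833) in Trp against HFD, -0.07 (SE 0.42, adjusted p = 0.967) in IPA against HFD and 0.40 (SE 0.42, adjusted p = 0.987) in Trp against IPA, by edgeR. The highest HFD value was that of HFD 3, the library with the Slc6a3 signal and with 22.6 CPM of Slc18a2, the vesicular monoamine transporter, against 6.63 to 10.15 CPM elsewhere. Of 12 dopamine neuron markers, which include these, Th, Lmx1a and Foxa2 peaked in other libraries and the rest in HFD 3. Th was at 9.14 CPM in HFD 1, where Ddc was lowest, and at 5.63 CPM in HFD 3. The part of these markers in the Ddc values was not tested. Without HFD 3, the Trp against HFD value of Ddc was 0.794 and that of IPA against HFD 0.391. Leaving out HFD 1 or Trp 2 brought the Trp against HFD value down to 0.0781 or 0.115, and over each library left out it ran from 0.0781 to 0.794.

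Maoa and Maob, the monoamine oxidases of the outer mitochondrial membrane, lie side by side on the X chromosome, from 16485937 to 16554057 on the plus strand and from 16575521 to 16683605 on the minus strand in the table's coordinates. Maoa prefers serotonin and noradrenaline as substrates, and Maob, which is abundant in astrocytes and serotonin neurons, prefers phenylethylamine. Maoa stood at 43.0, 39.2 and 39.2 CPM in Trp, 39.3, 32.5 and 37.1 CPM in IPA, and 35.5, 41.25 and 46.3 CPM in HFD. It was among the most narrowly measured members: the edgeR log2 fold change was -0.02 (95% interval -0.26 to 0.22, adjusted p = 0.975) in Trp against HFD, -0.175 (-0.42 to 0.07, adjusted p = 0.599) in IPA against HFD and 0.16 (-0.08 to 0.40, adjusted p = 0.987) in Trp against IPA. Limma on log2 FPKM put the sign of the Trp against HFD value the other way, at 0.0602 to 0.0668. Without HFD 3 it was 0.0766, and the IPA against HFD value was -0.0802.

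Maob stood at 39.1, 37.8 and 25.9 CPM in Trp, 34.5, 32.1 and 27.3 CPM in IPA, and 22.9, 26.5 and 30.7 CPM in HFD. Trp 1 and 2 and IPA 1 and 2 lay above all HFD libraries, and Trp 3 and IPA 3 within their range. The log2 fold change was 0.36 (SE 0.16, 95% interval 0.01 to 0.71, unadjusted p = 0.045, adjusted p = 0.429 by edgeR) in Trp against HFD. It was 0.23 (SE 0.16, adjusted p = 0.644) in IPA against HFD and 0.13 (SE 0.16, adjusted p = 0.987) in Trp against IPA. The CPM ratio of Maob to Maoa was 0.908, 0.963 and 0.661 in Trp, 0.876, 0.986 and 0.737 in IPA, and 0.644, 0.643 and 0.663 in HFD. The 3 HFD ratios lay closest together, all IPA ratios lay above them, and Trp 3 fell among them. Trp 3 also had the lowest sums of choroid plexus markers (40.8 CPM) and ependymal markers (15.1 CPM), while IPA 3 had 845 and 29.7 CPM. The part of these markers in the Maob values was not tested.

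**Figure D3:**
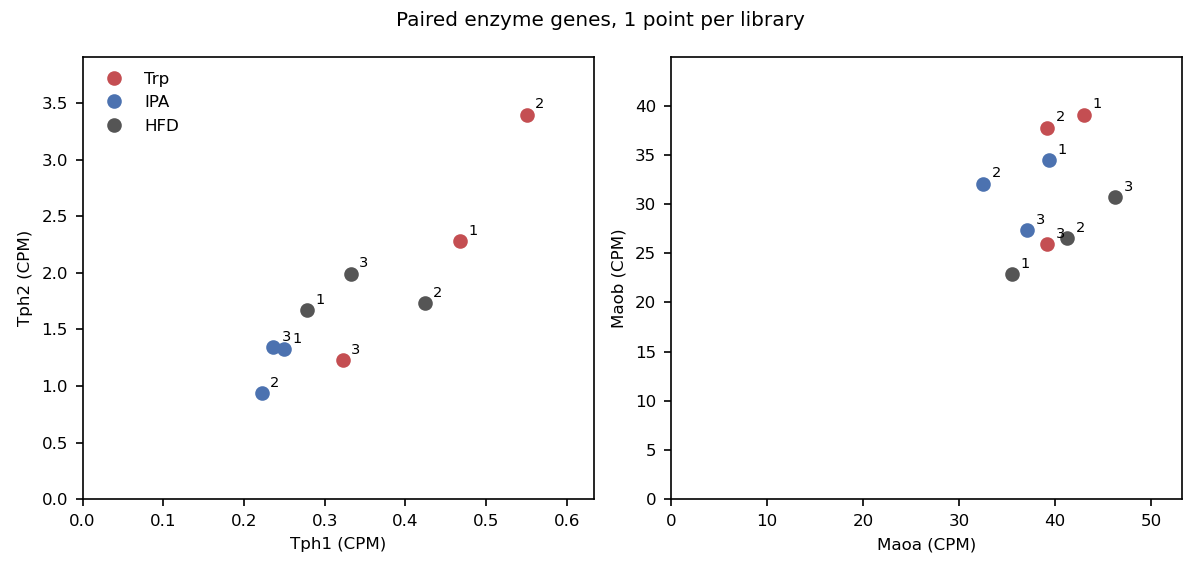
CPM of Tph2 against Tph1 (left) and of Maob against Maoa (right), 1 point per library, numbered by replicate and coloured as Trp, IPA or HFD. The Maob to Maoa ratio is 0.661 to 0.963 in Trp, 0.737 to 0.986 in IPA and 0.643 to 0.663 in HFD, and the Tph2 to Tph1 ratio stays between 3.81 and 6.17 in all libraries.

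On the kynurenine side, Tdo2, tryptophan 2,3-dioxygenase, opens the indole ring. It was at 1.83, 0.814 and 0.504 CPM in Trp, 1.03, 1.38 and 0.804 CPM in IPA, and 1.05, 1.33 and 3.25 CPM in HFD. HFD 3 held the highest value, and the groups overlapped. The log2 fold change was -0.83 (SE 0.52, adjusted p = 0.604 by edgeR) in Trp against HFD, -0.805 (SE 0.52, adjusted p = 0.62) in IPA against HFD and -0.02 (SE 0.53, adjusted p = 0.998) in Trp against IPA. Without HFD 3 the first 2 were -0.175 and -0.156. In mouse, Tdo2 is also a gene of dentate granule cells, whose 8 markers summed to at most 151 CPM in Trp, 126 CPM in IPA and 182 CPM in HFD, the last in HFD 3.

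Afmid, arylformamidase, releases kynurenine from N-formylkynurenine. It gave 0.565, 1.17 and 1.23 CPM in Trp, 2.05, 0.715 and 0.355 CPM in IPA, and 1.199, 1.88 and 0.356 CPM in HFD. The IPA libraries alone spanned the whole range. In the GENCODE M21 annotation Afmid shares 1566 exon bases on the same strand with Gm20708. Afmid had 29, 49 and 61 counts in Trp, 82, 29 and 15 in IPA, and 56, 93 and 15 in HFD, and Gm20708 had 88, 79 and 93 in Trp, 15, 60 and 54 in IPA, and 76, 16 and 67 in HFD. The library with the most Afmid counts had the fewest Gm20708 counts in IPA and in HFD, and the most in Trp. Added together, the levels were 2.28, 3.065 and 3.10 CPM in Trp, 2.43, 2.19 and 1.63 CPM in IPA, and 2.83, 2.20 and 1.95 CPM in HFD. The reads of Afmid alone are therefore uncertain. For Afmid alone the edgeR log2 fold change was -0.22 (adjusted p = 0.947) in Trp against HFD, -0.15 (adjusted p = 0.96) in IPA against HFD and -0.07 (adjusted p = 0.997) in Trp against IPA. Without HFD 3 the values of Afmid alone were -0.642 in Trp against HFD and -0.569 in IPA against HFD. For the sum, which was chosen after seeing the data, it was 0.274 (adjusted p = 0.717), -0.159 (adjusted p = 0.845) and 0.433 (adjusted p = 0.987).

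Kmo, kynurenine 3-monooxygenase, a gene of microglia in the brain, gave 3 to 31 counts a library. It was at 0.234, 0.359 and 0.161 CPM in Trp, 0.250, 0.0986 and 0.0709 CPM in IPA, and 0.1285, 0.101 and 0.736 CPM in HFD. The highest value was again that of HFD 3. The log2 fold change was -0.34 (SE 0.73, adjusted p = 0.913 by edgeR) in Trp against HFD, -1.17 (SE 0.79, adjusted p = 0.63) in IPA against HFD and 0.83 (SE 0.80, adjusted p = 0.987) in Trp against IPA. Without HFD 3 the Trp against HFD value was 1.10 and the IPA against HFD value 0.275, so the sign of both rests on that library.

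Aadat and Kyat3 encode aminotransferases that turn kynurenine into kynurenic acid. Aadat was at 0 in the IPA libraries, and Kyat3 had the smallest edgeR p of the 9 tested members in both comparisons with HFD. For that reason their promoters in RefSeq's GRCm38.p6 annotation are shown. They lie at chr8:60505874-60506173 and chr3:142700798-142701097, both on the plus strand, and capitals mark matches to GGGCGG or GCGTG, or their reverse complements.
Aadat promoter: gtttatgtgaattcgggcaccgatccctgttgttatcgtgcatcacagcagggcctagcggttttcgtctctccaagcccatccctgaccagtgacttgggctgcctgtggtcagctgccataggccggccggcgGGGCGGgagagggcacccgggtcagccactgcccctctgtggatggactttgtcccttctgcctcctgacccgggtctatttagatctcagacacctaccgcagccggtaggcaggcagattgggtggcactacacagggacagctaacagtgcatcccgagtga
Kyat3 promoter: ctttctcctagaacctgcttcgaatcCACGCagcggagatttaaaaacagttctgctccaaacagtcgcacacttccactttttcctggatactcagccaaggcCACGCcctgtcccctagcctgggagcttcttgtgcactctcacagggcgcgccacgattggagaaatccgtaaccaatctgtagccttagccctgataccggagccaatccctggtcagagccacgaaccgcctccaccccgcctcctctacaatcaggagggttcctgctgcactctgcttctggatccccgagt
GGGCGG, the GC box of the SP1 factor, occurs once in the Aadat window and in 35.7% of all windows. The GCGTG core occurs at 2 places in the Kyat3 window, both as CACGC, against 32.4% of windows that hold it. TGACGTCA, the cAMP response element, was found in 1.79% of windows and in neither of these. Of the 10 members, 9 have a promoter in the RefSeq table used, and Maob is missing.

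Kyat3, kynurenine aminotransferase 3, lies on chromosome 3 from 142406812 to 142452631 on the plus strand in the table's coordinates. It was measured at 7.73, 7.35 and 6.47 CPM in Trp, 6.81, 6.435 and 7.09 CPM in IPA, and 4.54, 5.75 and 4.23 CPM in HFD, with means of 7.185 ± 0.648, 6.78 ± 0.329 and 4.84 ± 0.805 (SD, n = 3 each). In CPM all 6 Trp and IPA libraries lay above all 3 HFD libraries, and Trp and IPA overlapped. In the authors' FPKM the groups did overlap: Kyat3 was at 2.785, 3.00 and 1.86 FPKM in Trp, 2.17, 1.66 and 1.805 FPKM in IPA, and 1.38, 1.998 and 1.16 FPKM in HFD, and HFD 2 exceeded Trp 3, IPA 2 and IPA 3. Counts were 307 to 397 in Trp, 261 to 300 in IPA and 178 to 285 in HFD. Kyat3 stood 1.48-fold higher in Trp than in HFD (log2 fold change 0.57, SE 0.15, 95% interval 0.24 to 0.90, unadjusted p = 0.00274), with an adjusted p of 0.19 by edgeR. It stood 1.40-fold higher in IPA than in HFD (0.48, SE 0.15, 0.15 to 0.82, unadjusted p = 0.00787), with an adjusted p of 0.344 by edgeR. Trp and IPA differed by 0.08 (SE 0.15, -0.25 to 0.41, adjusted p = 0.987 by edgeR). DESeq2 gave Kyat3 an adjusted p of 0.0425 in Trp against HFD, the one member called by any tool or setting, and over all alternatives the adjusted p ran from 0.0425 to 0.613. The same range in IPA against HFD was 0.166 to 0.796. With limma on log2 FPKM the IPA against HFD value of Kyat3 fell to between 0.205 and 0.319 and that of Trp against IPA was 0.291 to 0.402, depending on the pseudocount. Without HFD 3 the edgeR values of Kyat3 were 0.481 in Trp against HFD and 0.397 in IPA against HFD. The red blood cell sum separated the same libraries in the other direction, 233 to 399 CPM in Trp and IPA against 571 to 2212 CPM in HFD. Over the 9 libraries, log2 CPM of Kyat3 had a Pearson correlation of -0.809 with that sum on the log2 scale. The correlation was 0.746 with the striatal sum, -0.674 with the oligodendrocyte sum and 0.0045 with the pineal sum. The part of these markers in the Kyat3 values was not tested. In the authors' deposited table, Kyat3 had a log2 fold change of 0.57 with q = 0.135 in Trp against HFD and 0.49 with q = 0.278 in IPA against HFD, the smallest q among the members, and Tph1, Kmo and Aadat were not tested. A gene on the opposite strand, Gm15540, shares 264 exon bases with Kyat3 and had 0 counts in every library.

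Aadat, also called kynurenine/alpha-aminoadipate aminotransferase, gave 8, 7 and 6 counts in Trp, 0, 0 and 0 counts in IPA, and 5, 5 and 12 counts in HFD. That is 0.156, 0.168 and 0.121 CPM in Trp and 0.107, 0.101 and 0.285 CPM in HFD. A count of 0 in a single IPA library allows up to 0.0709 to 0.0751 CPM, and 3 counts over the 3 IPA libraries come to 0.0244 CPM. Over the HFD group, 22 counts gave 0.159 CPM, 6.51-fold above that limit over the IPA group. Over the Trp group, 21 counts gave 0.147 CPM, 6.02-fold above it. HFD 3 gave 12 of the 22 HFD counts, and the ratio was not computed without that library. These ratios allow for counting error in IPA only, not for that in HFD or Trp or for the spread between mice. The exact two-sided permutation test gave p = 0.1 for IPA with HFD and likewise for Trp with IPA, the smallest that 3 against 3 libraries allow. Without the filter on low counts, edgeR gave an unadjusted p of 0.000804 and an adjusted p of 0.208 in IPA against HFD, and 0.00101 and 0.826 in Trp against IPA. Of the 54513 genes in the table, Aadat was the 1 with 0 counts in all IPA libraries and at least 5 in each of the other 6 libraries. The minimum of 5 is Aadat's own lowest count elsewhere and was chosen after its values were seen. With the groups exchanged, 0 genes met it for Trp and 1 for HFD.

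**Figure D4:**
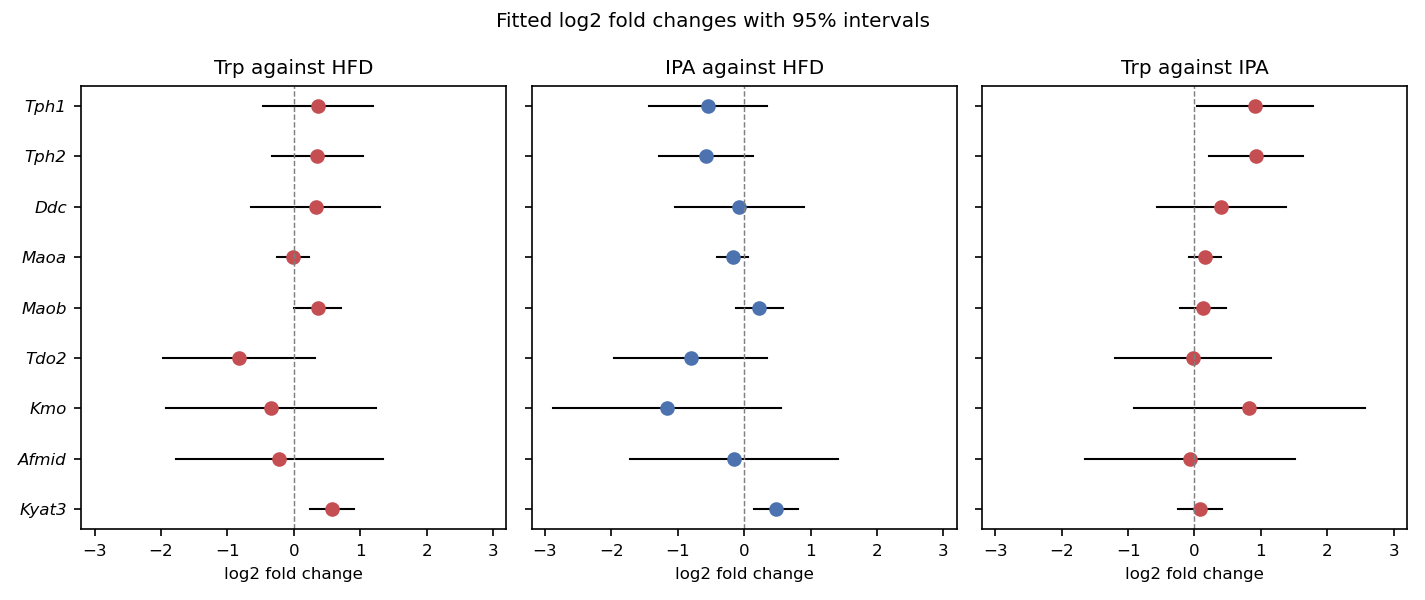
Log2 fold change of the 9 tested members (points) with its 95% interval (lines), with a panel each for Trp over HFD, IPA over HFD and Trp over IPA. Kyat3 lies right of 0 in both comparisons with HFD, at 0.57 and 0.48, and the intervals are narrowest for Maoa and widest for Kmo.

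Companion genes of the pathway were read from 6 lists. Over all of them, a single gene, Sult1a1, passed with edgeR, in Trp against HFD, and DESeq2 called the same gene in Trp against HFD and in Trp against IPA. Sult1a1, a cytosolic sulfotransferase of phenols and monoamines, stood at 22.5, 25.6 and 14.1 CPM in Trp, 11.01, 11.5 and 8.89 CPM in IPA, and 4.925, 7.18 and 8.22 CPM in HFD. All Trp and all IPA libraries lay above all HFD libraries. Sult1a1 rose in Trp against HFD (log2 fold change 1.61, SE 0.24, adjusted p = 0.0225 by edgeR), and its value was 0.63 (SE 0.24, adjusted p = 0.426) in IPA against HFD and 0.985 (SE 0.23, adjusted p = 0.987 by edgeR, 0.0243 by DESeq2, 0.0243 to 1 over the alternatives) in Trp against IPA. The Trp against HFD call was lost without HFD 1 (adjusted p = 0.0565), HFD 2 (0.0806), IPA 1 (0.0511), IPA 2 (0.0566), Trp 1 (0.0905) or Trp 2 (0.0773), with the 6 libraries compared alone (0.102), with the replicate block (0.0541) and with limma on log2 FPKM and no filter (0.138), with log2 fold changes of 1.43 to 1.83 over the libraries left out. Its exons share 61 bases with Sgf29 on the opposite strand. The list it belongs to, 13 enzymes of amine and aldehyde breakdown beside the monoamine oxidases, had 1 higher and 0 lower in Trp against HFD and 0 of 13 in IPA against HFD. The list's most abundant genes, the aldo-keto reductase Akr1a1 at 196 FPKM and the aldehyde dehydrogenase Aldh1a1 at 35.9 FPKM, had values of -0.06 and -0.01 in Trp against HFD, and that of Aldh1a1 was 0.468 without HFD 3.

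Of 16 other enzymes of the kynurenine and NAD branch, 13 were tested and 0 passed in either direction in any of the 3 comparisons, while Kynu, Haao and Acmsd were too low to test. In Trp against HFD the smallest p values were those of Gcdh, glutaryl-CoA dehydrogenase, at 0.18 (adjusted p = 0.511) and Kyat1, a paralogue of Kyat3, at 0.22 (adjusted p = 0.534). In IPA against HFD they were those of Ido1 at 0.72 (adjusted p = 0.48) and Ido2 at -0.62 (adjusted p = 0.553), the indoleamine dioxygenases that share the first step with Tdo2. Without HFD 3, Ido1 had 0.398 and Ido2 -0.501. Got2, the mitochondrial aspartate aminotransferase that can also form kynurenic acid, was most abundant at 100.9 FPKM, with values of -0.10 and -0.09, and Ogdh followed at 50.2 FPKM with 0.08 and 0.02. In Trp against IPA the smallest p values were those of Qprt at 1.24 and Gcdh at 0.18 (both adjusted p = 0.987).

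Tryptophan hydroxylases need tetrahydrobiopterin. Of 10 genes of its synthesis and of the aromatic hydroxylases that use it, 9 were tested and 0 passed in the 3 comparisons. Gch1, GTP cyclohydrolase and the first enzyme of that synthesis, had -0.66 (adjusted p = 0.463) in Trp against HFD and -0.88 (adjusted p = 0.392) in IPA against HFD. Qdpr, which regenerates the cofactor, had -0.37 (adjusted p = 0.457) in Trp against HFD and was most abundant at 197 FPKM, followed by Pts at 23.1 FPKM. Spr, sepiapterin reductase, had -0.23 (adjusted p = 0.463) in IPA against HFD. Values were negative for 7 of 9 tested genes in Trp against HFD and for 8 of 9 in IPA against HFD, with medians of -0.14 and -0.23. These values rest largely on HFD 3: without it, 5 of 9 were negative in Trp against HFD and 6 of 9 in IPA against HFD, with medians of -0.0317 and -0.0345. Gch1 then had -0.217 and -0.439, Qdpr -0.112 and -0.0345, and Spr -0.0317 and -0.139.

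Ddc and the kynurenine aminotransferases use pyridoxal phosphate, and 0 of the 4 genes of its supply passed. Plpbp had 0.15 (adjusted p = 0.54) and Pdxp, the pyridoxal phosphatase and most abundant at 83.8 FPKM, -0.16 (adjusted p = 0.619) in Trp against HFD. Pdxp had -0.21 (adjusted p = 0.503) and Plpbp 0.14 (adjusted p = 0.584) in IPA against HFD, and Pdxk, the kinase, stood at 32.0 FPKM. Of 11 genes of monoamine storage, uptake and melatonin synthesis, 8 were tested and 0 passed. Slc6a3 had -4.15 (adjusted p = 0.373) in Trp against HFD and -3.22 (adjusted p = 0.488) in IPA against HFD, with HFD 3 at 11.1 CPM and the other HFD libraries at 0.514 and 0.424 CPM, and without HFD 3 it had -1.07 and -0.134. Dbh had -0.91 (adjusted p = 0.549) and -0.91 (adjusted p = 0.563) in these comparisons, and -1.27 in both without HFD 3. The most abundant were Slc29a4 at 2.90 FPKM and Slc18a2 at 2.26 FPKM. Of 10 tryptophan transport and charging genes in the table, 8 were tested and 0 passed. Slc3a2 and Slc7a5, the paired chains of a large neutral amino acid transporter, had 0.21 (adjusted p = 0.477) and -0.15 (adjusted p = 0.558) in Trp against HFD, and Slc7a5 and Slc7a8 had -0.175 (adjusted p = 0.501) and -0.20 (adjusted p = 0.55) in IPA against HFD. Slc3a2 and Wars, the tryptophanyl-tRNA synthetase, were most abundant at 28.7 and 28.3 FPKM.

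In Trp against IPA, 0 genes passed with edgeR in each of the 6 lists, and 1, Sult1a1, with DESeq2. Among the smallest p values were those of Spr at 0.11 and Gchfr at -0.51 (tetrahydrobiopterin), Pdxp at 0.05 (pyridoxal phosphate), Slc22a3 at -0.60 and Aanat at 0.34 (monoamine uptake and melatonin), Sult1a1 and Rnls at 0.985 and 0.48 (amine breakdown), and Slc3a2 and Slc43a2 at 0.135 and 0.11 (transport), all with an adjusted p of 0.987 by edgeR.

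**Figure D5:**
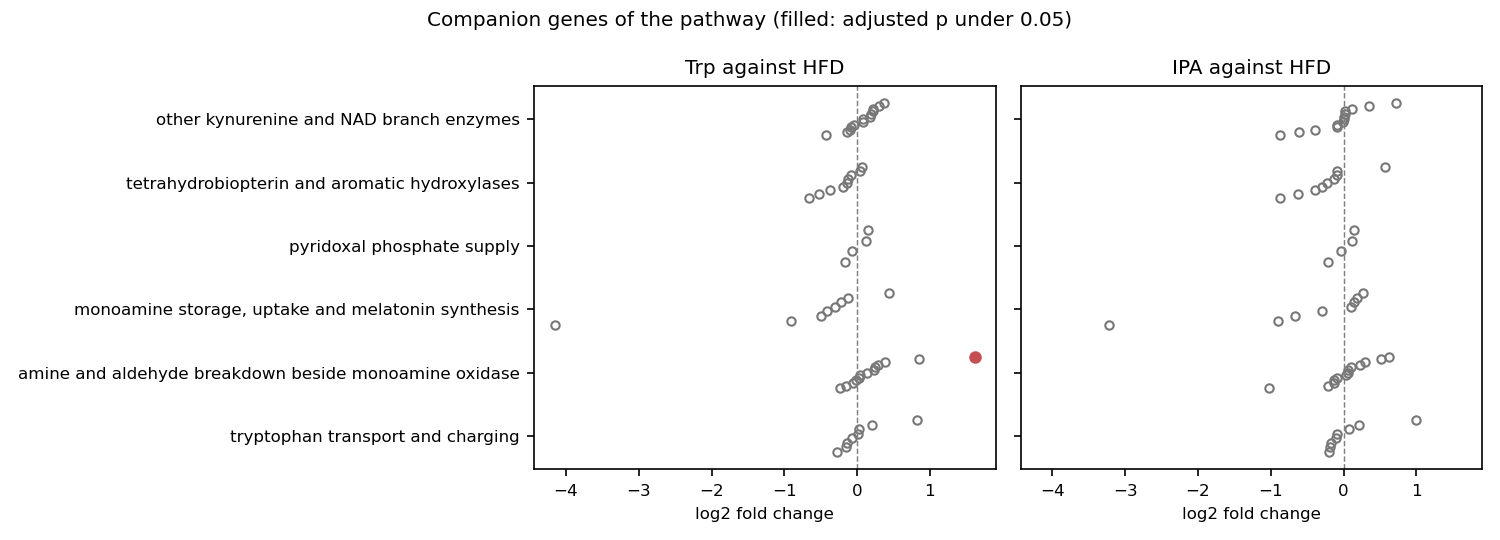
Log2 fold change of each tested gene of the 6 companion lists (points, filled where the adjusted p was under 0.05), for Trp against HFD on the left and IPA against HFD on the right. Sult1a1 at 1.61 in Trp against HFD is the 1 filled point, and Slc6a3 at -4.15 and -3.22 lies farthest from 0.

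The genes whose levels across the 9 libraries were most like those of a member were named by Pearson correlation of log2 CPM over 13211 genes, as a description that rests on 9 libraries from 3 groups. For Kyat3 they were Gm40518 (0.994), Nr2c1 (0.989) and Farp2 (0.967). For Maob they were Capn2 (0.979), Slc25a13 (0.978) and Aff1 (0.974), and for Maoa Slc35e3 (0.917), Nudt5 (0.916) and Ddhd1 (0.908). For Ddc they were Aldh9a1 (0.974), Adssl1 (0.971) and Sdha (0.963). For Tph2 they were Slc43a2 (0.954), Wdr41 (0.879) and Lima1 (0.860), and for Tph1 Rtraf-ps (0.941), Armc2 (0.903) and Ift27 (0.8795). Among the kynurenine enzymes, Tdo2 was closest to Arpc5 (0.948), Cilk1 (0.945) and Pakap (0.935), Kmo to Akap12 (0.972), Sparc (0.961) and Rragb (0.938), and Afmid to Jsrp1 (0.924), Tmem40 (0.911) and Gm13127 (0.907). Coefficients of this size were also found for Tph1 and Kmo, the tested members with the fewest counts.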

How the data were processed

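Polyadenylated RNA of 9 libraries, 3 mice a group, was sequenced; per the labels' protocols, cDNA was made with random hexamers and no strand marking is described. StringTie 2.1.3b and the build mm10 are named per the submitters' processing notes. The sources used here do not name the aligner, counter or annotation release. Per the file headers, the authors deposited gene counts, which are whole numbers without scaling, FPKM, and a log2 fold change, p-value and q-value for each comparison with HFD. All per-library columns were mapped through the labels. The table's gene starts differ from GRCm38, so its coordinates are printed as given, with no build.

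The members and lists were chosen with earlier results of these data known. Counts were filtered with filterByExpr (minimum count 10), scaled by TMM and fitted in edgeR 4.0.16 (R 4.3.3) with robust quasi-likelihood, 1 mean per group and all 9 libraries. Tests were two-sided, adjusted by Benjamini-Hochberg over 18690 genes. Alternatives used DESeq2 1.42.0, limma 3.58.1 on log2(FPKM + 0.5, 0.1 or 1), RLE or upper quartile scaling, no filter, the 6 libraries compared, a replicate block and leaving out each library. All members were named, with, per companion list, the genes that passed or else the 2 with smallest p, and the 2 with highest FPKM; some genes that this rule names are not reported here. Exon overlap came from GENCODE M21 and promoters from RefSeq.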

Additional observations from a re-analysis of the deposited data

How the results depend on the processing

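Of 469 recomputed fold changes of members, 438 kept their sign and side of the threshold, 30 changed sign (in 9 of 27 results), 1 newly passed and 0 fell out. The newly passing one was Kyat3 in Trp against HFD with DESeq2, which made 1 member called there. Because 0 members passed in the main fit, none could fall out. The 438 also include fits without a library of the group not compared, which hardly move a fold change. For Tph1 in Trp against HFD it was 0.363 in the main fit and 0.364 without IPA 1. In Trp against HFD, genes called numbered 64, and 309 with DESeq2, 97 with no filter, 8 with the 6 libraries alone, 23 with the replicate block and 6 with limma and no filter, and 13 (without Trp 2) to 323 (without HFD 3) with a library left out. In IPA against HFD, 1 became 171, 6, 2 and 0 with DESeq2, no filter, the 6 libraries and the replicate block, and 0 to 52 (without HFD 3) with a library left out. In Trp against IPA, 0 became 15 with DESeq2, 3 with no filter, 2 with limma at each pseudocount and 1 with limma and no filter, and 0 to 1 with a library left out; 840 genes had an unadjusted p under 0.05. The cause of these shifts was not tested.

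Signs turned for Afmid in Trp against HFD with the replicate block (0.0579), limma with no filter (0.0885) and the summed counts (0.274), and in Trp against IPA with the same (0.203, 0.279 and 0.433). Maoa in Trp against HFD turned with limma (0.0637, 0.0668 and 0.0602, and 0.0637 with no filter), and Tdo2 in Trp against IPA with upper quartile scaling (0.00105) and limma with no filter (0.0022). With a library left out, the Trp against HFD values ran from -0.642 to 0.332 for Afmid, -0.112 to 0.0766 for Maoa, -0.775 to 1.1 for Kmo and -0.0347 to 0.655 for Tph2. The IPA against HFD values ran from -1.11 to 0.404 for Afmid, -0.325 to 0.391 for Ddc and -1.87 to 0.275 for Kmo, and the Trp against IPA values from -0.707 to 0.315 for Tdo2 and -0.486 to 0.883 for Afmid. Among companion genes, an alternative chosen after seeing the data, leaving out HFD 3 turned the sign in Trp against HFD of Slc18a2 (0.189), Pts (0.0217), Ido1 (-0.136) and Aldh1a1 (0.468), and in IPA against HFD of Slc18a2 (0.0227), Pts (0.0761), Gcdh (-0.0155), Ogdh (-0.0368) and Aldh1a1 (0.261).

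The labels' replicate numbers do not pair the samples: deviations of same-numbered libraries correlated at -0.196 to 0.0479 over 9 pairs, and those of other numbers at -0.145 to 0.256 over 18. With the replicate block, 0 members were called. With 3 mice a group, 95% intervals of member fold changes were 0.48 wide from end to end at best and 3.16 to 3.49 at worst (log2). A difference whose interval included 0 could not be told from 0, and the intervals are not adjusted for the number of genes tested. Aadat, with 0 to 12 counts a library, was too low to test.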
